A study of Mus musculus with 5 samples.

Results

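The transcription factors that build and maintain the luminal lineage of the mammary gland were followed across 5 arrays of mouse mammary epithelial cells. The group holds 10 genes out of 22180 measured, Gata3, Foxa1, Tbx3, Cited1, Elf5, Stat5a, Elf3, Ehf, Sox9 and Sox10. They were chosen by name, with earlier results of these data known. Each gene was read from a probe set annotated to it alone, and the brightest set, averaged over all arrays, stood for a gene with several. All 10 were measured and all 10 lay at or above the 40th percentile of gene signals, the filter for dim genes. Passing it does not show that a gene is expressed. Sox10 was the dimmest member, with a mean of 4.28, where array medians over all probe sets were 4.24 to 4.29.

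The cells came from mice aged 4 weeks on a congenic FVB/NJ background. The knockout group, 2 arrays, carried an MMTV-Cre transgene and homozygous floxed Mmp14 alleles, written MMTV-Cre+/Mmp14(f/f), and the wild-type group, 3 arrays, was made of littermates that carried the same floxed alleles but lacked Cre, written Mmp14(f/f). Floxed alleles were therefore shared by both groups, and the Cre transgene differed together with the deletion. Mmp14 encodes a membrane-anchored matrix metalloproteinase, and the mouse mammary tumour virus promoter drives Cre mainly in mammary epithelium, so other cells of a preparation can keep the gene. The labels call the arrays biological replicates but do not say how many mice went into each, so a p-value reflects only how far these samples vary. Values are log2 signals, and each mean ± SD is over 2 knockout (n = 2) or 3 wild-type (n = 3) arrays.

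Mammary ducts have an inner luminal layer and an outer basal, myoepithelial layer. Luminal cells fall into hormone-sensing cells, which carry the oestrogen and progesterone receptors, and secretory progenitors, which give rise to milk-producing alveolar cells. GATA3 and FOXA1 act with the oestrogen receptor in hormone-sensing cells, whereas ELF5 and STAT5A drive the alveolar programme downstream of prolactin. At the age sampled, ducts grow into the fat pad from terminal end buds.

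Of the 22180 genes tested with limma, 0 (0%) had an adjusted p under 0.05, and 288 (1.3%) had an unadjusted p under 0.05. Mmp14 itself read 7.98 and 7.28 on the knockout arrays and 8.15, 8.67 and 7.75 on the wild-type arrays, which overlap. Its difference was -0.56 ± 0.39 (SE; limma adjusted p = 0.919), and the sources used here do not place its probes relative to the deleted part. Within run 1 the difference was -0.43 and within run 2 it was -0.46, each knockout array lying below the wild-type arrays of its own run. Array numbers in the labels form 2 runs, with knockout 1, wild type 1 and wild type 2 in run 1 and wild type 3 and knockout 2 in run 2. Each knockout array thus lies in a different run, and what a run stands for is not stated. Luminal and basal epithelial markers gave high signals on every array, with Krt8, a luminal keratin, at 11.34 to 11.48 and Krt14, a basal keratin, at 8.96 to 9.29.

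None of the 10 luminal factors passed the test between genotypes, and 0 of 10 had an unadjusted p under 0.05. The mean was lower in the knockout for 7 of them and higher for Tbx3, Sox9 and Sox10, with a median difference of -0.07, while 49.5% of all genes were lower, 46.2% were higher and the median over all genes was 0.00. No member had groups that did not overlap, against 2.63% of all genes with both knockout arrays higher and 2.8% with both lower. The feature that stood out in the values was the distance between the knockout arrays themselves. Gata3, Cited1, Elf3 and Ehf were each above all wild-type arrays on knockout 1 and below all of them on knockout 2. In a bulk preparation, fewer cells of a type and less RNA per cell cannot be told apart.

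Upstream sequence is shown for Gata3, Elf3 and Cited1, which lay above the wild type on knockout 1 and below it on knockout 2, and for Foxa1, in which knockout 2 was the lowest array. The RefSeq promoter table of build GRCm38.p6 matched 6 of the 10 members by symbol. Ehf, which had the same arrangement as Gata3, Elf3 and Cited1, was not among them. Each line gives the 250 bases before the first listed start of the gene, 5′ to 3′ on the strand of the gene. They lie at chr2:9878601-9878850 (minus strand) for Gata3, chr1:135258473-135258722 (minus strand) for Elf3, chrX:102252182-102252431 (minus strand) for Cited1 and chr12:57546112-57546361 (minus strand) for Foxa1. Capitals mark a match, on either strand, to 1 of 6 short motifs of the families to which the members other than Cited1, a co-regulator, belong.
Gata3: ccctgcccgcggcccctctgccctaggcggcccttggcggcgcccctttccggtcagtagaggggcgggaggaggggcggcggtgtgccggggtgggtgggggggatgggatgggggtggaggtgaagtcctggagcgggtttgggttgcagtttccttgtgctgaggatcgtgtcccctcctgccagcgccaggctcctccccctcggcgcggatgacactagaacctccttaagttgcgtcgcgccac
Elf3: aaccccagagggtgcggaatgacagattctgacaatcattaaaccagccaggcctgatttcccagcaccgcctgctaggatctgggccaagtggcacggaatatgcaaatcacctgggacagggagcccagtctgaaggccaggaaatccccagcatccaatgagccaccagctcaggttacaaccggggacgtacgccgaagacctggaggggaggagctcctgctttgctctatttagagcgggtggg
Cited1: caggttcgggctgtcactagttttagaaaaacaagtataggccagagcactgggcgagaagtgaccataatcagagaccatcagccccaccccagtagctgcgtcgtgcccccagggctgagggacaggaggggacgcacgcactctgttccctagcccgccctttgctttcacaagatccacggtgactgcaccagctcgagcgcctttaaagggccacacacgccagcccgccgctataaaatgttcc
Foxa1: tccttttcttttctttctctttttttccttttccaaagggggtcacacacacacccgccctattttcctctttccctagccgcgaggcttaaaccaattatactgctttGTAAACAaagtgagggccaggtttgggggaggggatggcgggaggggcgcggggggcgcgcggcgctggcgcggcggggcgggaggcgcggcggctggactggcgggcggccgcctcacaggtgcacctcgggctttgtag

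The motifs searched were AGATAA for GATA factors, AGGAAG for ETS factors, TTCNNNGAA for STAT factors, TGTTTAC for forkhead factors, AACAAT for SOX factors and AGGTGTGA for T-box factors, each on both strands. The Foxa1 window holds 1 forkhead match, which reads GTAAACA on the printed strand, and 3.17% of the 32851 promoter windows of that length hold one. The other 3 windows hold no match to these letters, which says only that the letters are not in these 250 bases. Of 2 further listed starts of Cited1, the window at chrX:102251844-102252093 holds 2 ETS matches and the other holds none. For comparison, 9.99% of all windows hold the GATA letters, 29.5% the ETS letters, 7.02% the STAT letters, 9.42% the SOX letters and 1.12% the T-box letters. The Gata3 window has a GC content of 70.0% and the Foxa1 window 62.0%, against a median of 52.4% over all windows. The Elf3 window stands at 57.2% and the Cited1 window at 58.0%. These matches are a description of the sequence and were not tied to binding in these cells.

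**Figure D1:**
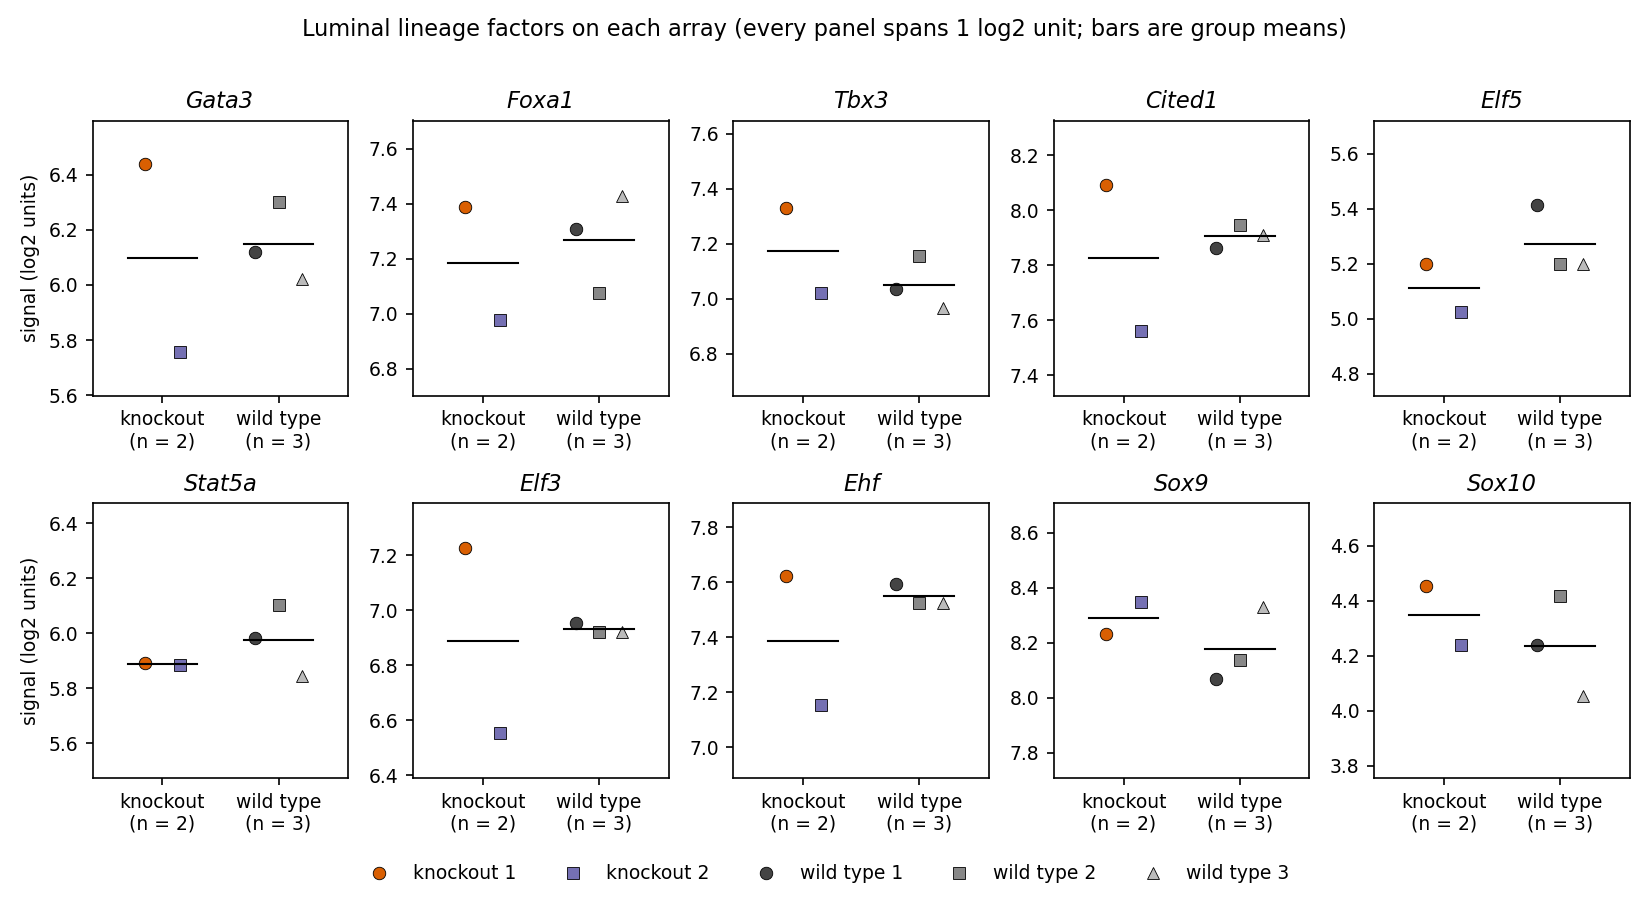
Signal in log2 units (vertical axis) of the 10 luminal lineage factors on each of 2 knockout and 3 wild-type arrays, 1 gene per panel; bars are group means and every panel spans 1 log2 unit. Knockout 1 sits above knockout 2 in 9 of 10 panels, most widely for Gata3 and Elf3, while Stat5a shows hardly any gap.

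GATA3 is a zinc finger factor needed to form and keep luminal cells. Gata3 read 6.44 on knockout 1 and 5.76 on knockout 2, against 6.12, 6.30 and 6.02 on wild type 1, 2 and 3. Its highest and its lowest value were thus both knockout arrays, 0.68 apart, where the wild-type arrays spanned 0.28. The means of 6.10 ± 0.48 and 6.15 ± 0.14 gave a difference of -0.05 ± 0.25 (SE; 95% interval -0.75 to 0.65; limma adjusted p = 1). The difference was 0.23 within run 1 and -0.26 within run 2, and its sign turned when wild type 2 was left out (0.03).

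Gata3 was also read by a second probe set annotated to it alone and by one shared with 2 further symbols. The second set, which is the dimmer, read 5.12 on knockout 1, 4.75 on knockout 2 and 4.79, 4.74 and 4.79 on the wild-type arrays, a difference of 0.17. There knockout 1 again lay above all wild-type arrays, but knockout 2 lay among them. The shared set read 5.11 and 4.57 on the knockout arrays and 4.92, 4.93 and 4.74 on the wild-type arrays. All 3 sets placed knockout 1 highest, and the main and the shared set placed knockout 2 lowest. With the mean of the sets annotated to Gata3 alone the difference was 0.06, so its sign depended on the probe set.

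FOXA1 is a forkhead pioneer factor that opens chromatin for the oestrogen receptor. Foxa1 read 7.39 on knockout 1 and 6.98 on knockout 2, against 7.31, 7.08 and 7.43 on the wild-type arrays. Knockout 2 was the lowest of the 5, and knockout 1 lay inside the wild-type range, just under wild type 3. The difference was -0.09 ± 0.18 (SE; 95% interval -0.60 to 0.43; limma adjusted p = 0.952), with 0.20 within run 1 and -0.45 within run 2.

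CITED1 is a transcriptional co-regulator that acts with the oestrogen receptor and marks hormone-sensing cells. Cited1 read 8.09 on knockout 1 and 7.56 on knockout 2, against 7.86, 7.95 and 7.91 on the wild-type arrays. The wild-type arrays lay within 0.08 of each other, and the knockout arrays stood 0.53 apart, 1 on each side of them. The means of 7.83 ± 0.37 and 7.91 ± 0.04 differed by -0.08 ± 0.18 (SE; 95% interval -0.59 to 0.43; limma adjusted p = 0.958). The difference was 0.19 within run 1 and -0.35 within run 2.

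TBX3 is a T-box repressor required for the early mammary bud and active in hormone-sensing cells. Tbx3 read 7.33 on knockout 1 and 7.02 on knockout 2, against 7.04, 7.15 and 6.97 on the wild-type arrays. Only knockout 1 stood outside the wild-type range, on the high side. The difference was 0.12 ± 0.12 (SE; 95% interval -0.23 to 0.47; limma adjusted p = 0.919), and without knockout 1 it was -0.03. It was 0.24 within run 1 and 0.05 within run 2.

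ELF5 is the ETS factor that sets the alveolar fate of luminal progenitors. Elf5 read 5.20 on knockout 1 and 5.03 on knockout 2, against 5.42, 5.20 and 5.20 on the wild-type arrays. Knockout 2 was the lowest and wild type 1 the highest, and the other 3 arrays had the same value to 6 decimals. The means of 5.11 ± 0.12 and 5.27 ± 0.12 gave -0.16 ± 0.10 (SE; 95% interval -0.45 to 0.13; limma adjusted p = 0.919), a moderated t of -1.56 that was the largest in size among the 10. The difference was -0.11 within run 1 and -0.17 within run 2, and without wild type 1 it was -0.09.

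STAT5A carries the prolactin signal to milk protein genes. Stat5a read 5.89 on knockout 1 and 5.88 on knockout 2, against 5.98, 6.10 and 5.84 on the wild-type arrays. Both knockout arrays lay inside the wild-type range and 0.01 apart, the smallest gap of any member. The difference was -0.09 ± 0.09 (SE; 95% interval -0.34 to 0.16; limma adjusted p = 0.919), with -0.15 within run 1 and 0.04 within run 2. Without wild type 2 it was -0.03.

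Its neighbour and close paralog Stat5b lies next to it on chromosome 11, and Ehf and Elf5 are likewise neighbours on chromosome 2. Stat5b read 5.93 and 6.05 on the knockout arrays and 5.93, 5.75 and 5.93 on the wild-type arrays, a difference of 0.12, opposite in sign to Stat5a. Neither passed the test, and probes of such similar genes can capture RNA of both. The sources used here do not place the probes of either set.

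ELF3 and EHF are ETS factors of simple and glandular epithelia. Elf3 read 7.23 on knockout 1 and 6.55 on knockout 2, against 6.95, 6.92 and 6.92 on the wild-type arrays. The wild-type values lay within 0.03, and those of wild type 2 and 3 were equal, while the knockout arrays stood 0.67 apart on either side. The difference of the means was -0.04 ± 0.22 (SE; 95% interval -0.68 to 0.60; limma adjusted p = 1). Elf3 was the single member called when 1 knockout array was left out, and it was called in opposite directions. Without knockout 1 it was lower by limma (-0.38, adjusted p = 0.0202, where 7.92% of all genes were called), and without knockout 2 it was higher (0.29, adjusted p = 0.0488, where 3.76% were called). In both fits the spread came from the wild-type arrays alone, with the equal values in them. Within run 1 the difference was 0.29 and within run 2 it was -0.37.

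Ehf read 7.62 on knockout 1 and 7.15 on knockout 2, against 7.60, 7.53 and 7.53 on the wild-type arrays. Knockout 1 exceeded wild type 1 by little, and knockout 2 stood well below all others. The difference was -0.16 ± 0.16 (SE; 95% interval -0.61 to 0.29; limma adjusted p = 0.919), the largest in size of the 10, and it was 0.07 without knockout 2. It was 0.06 within run 1 and -0.37 within run 2. The knockout arrays lay closer together for 4 other ETS factors than for Elf3 and Ehf. Elf1 read 9.47 on both, Elf2 7.77 on knockout 1 and 7.90 on knockout 2, Elf4 6.91 and 6.86, and Ets2 9.81 and 9.63. Ets2 still had the arrangement of Elf3 and Ehf, since its wild-type arrays lay between, at 9.72 to 9.79.

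SOX9 and SOX10 are closely related HMG box factors found in luminal progenitors, basal cells and stem-like cells of the gland. Sox9 read 8.23 on knockout 1 and 8.35 on knockout 2, against 8.07, 8.14 and 8.33 on the wild-type arrays. It was the single member with knockout 2 above knockout 1, and both arrays of run 2 gave its highest values. The difference was 0.11 ± 0.10 (SE; 95% interval -0.17 to 0.39; limma adjusted p = 0.919), with 0.13 within run 1 and 0.02 within run 2. It was 0.05 without knockout 2, 0.06 without wild type 1 and 0.19 without wild type 3.

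Sox10, which also marks Schwann cells, read 4.45 on knockout 1 and 4.24 on knockout 2, against 4.24, 4.41 and 4.05 on the wild-type arrays. Knockout 1 was the highest and wild type 3 the lowest. The difference was 0.11 ± 0.14 (SE; 95% interval -0.29 to 0.51; limma adjusted p = 0.919), and with 1 array left out it ran from 0.0017 without knockout 1 to 0.22 without knockout 2, with 0.02 without wild type 3. It was 0.13 within run 1 and 0.18 within run 2. The 9 measured of 12 Schwann cell markers had a list mean of 5.59 and 5.87 on the knockout arrays and 5.50 to 5.80 on the wild-type arrays. Their order differed from that of Sox10, since knockout 2 was the highest array for the list. Among them Cdh19, a glial cadherin, read 4.76 on knockout 2 and 3.49 to 3.69 on the other arrays.

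**Figure D2:**
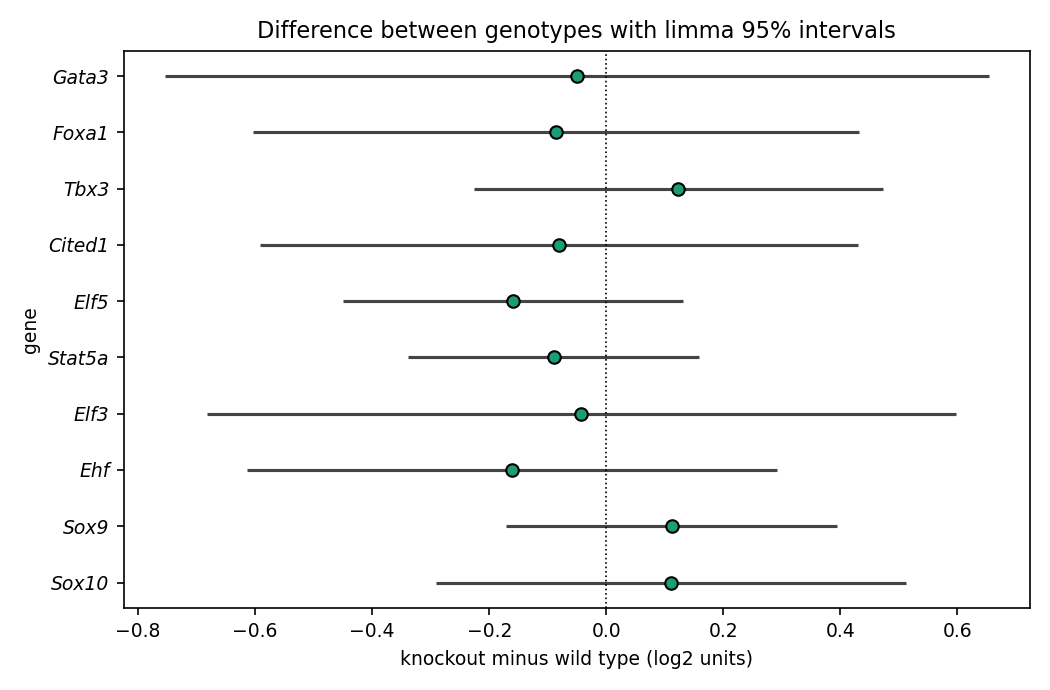
Difference of the means, knockout minus wild type in log2 units (horizontal axis), for each of the 10 genes, with limma's 95% interval as a line. Every interval includes 0, and the intervals of Gata3 and Elf3 are the widest, from -0.75 to 0.65 and from -0.68 to 0.60.

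The intervals give what these arrays could and could not resolve. The SE of a member's difference ran from 0.09 for Stat5a to 0.25 for Gata3, against a median of 0.07 over all genes. For Elf5, Stat5a and Sox9 the intervals stayed within 0.45 log2 units of 0. The widest intervals were those of Gata3 and Elf3.

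The arrays of the knockout were then compared with the wild-type arrays one at a time. Against knockout 1 alone, 8 of the 10 members were higher than the wild-type mean, with a median of 0.15, where 44.7% of all genes were higher. Elf5 and Stat5a were the exceptions. Against knockout 2 alone, 8 of the 10 were lower, with a median of -0.27, where 48.2% of all genes were lower, and here Sox9 and Sox10 were the exceptions. The means of the 2 arrays therefore averaged values on opposite sides of the wild type for 6 genes, Gata3, Foxa1, Tbx3, Cited1, Elf3 and Ehf.

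Knockout 1 exceeded knockout 2 for 9 of the 10 members, against 38.4% of all genes, of which 20.9% had equal values on both. Among genes with 5 different values the share was 50.6%. Knockout 1 above and knockout 2 below every wild-type array was seen for 4 of 10 members and for 7.52% of all genes. Equal values between arrays lower that share, and it was 11.6% among genes with 5 different values, which hold 6 of the members and 2 of the 4. Knockout 1 was above all wild-type arrays for 6 of the 10 members and 18.4% of all genes, and knockout 2 was below all of them for 6 of the 10 and 23.7% of all genes. The opposite arrangement, with knockout 2 above and knockout 1 below, held for 0 of the 10 and for 6.37% of all genes. The arrangement was noticed in the values, so the counts are a description. The knockout arrays differ in animals, array and run at once, and these cannot be told apart. Relative to the wild-type mean, the mean over the 10 members was 0.14 on knockout 1 and -0.20 on knockout 2, and 0.01, 0.03 and -0.03 on wild type 1, 2 and 3.

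**Figure D3:**
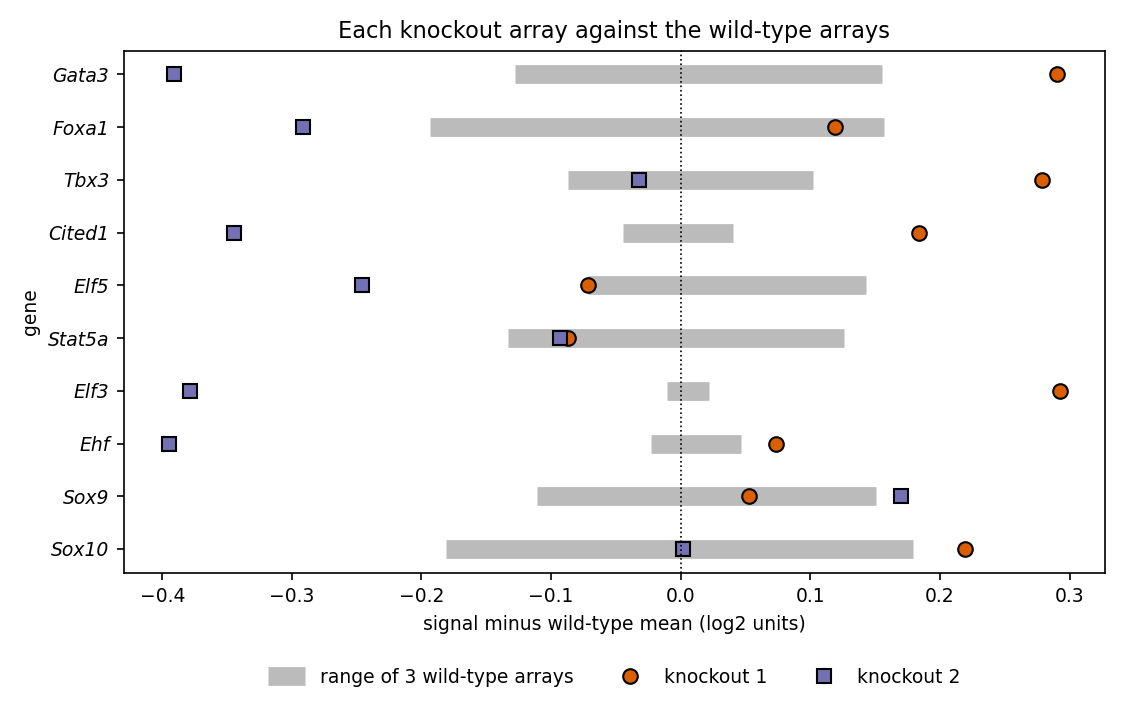
Signal of knockout 1 (circles) and knockout 2 (squares) minus the wild-type mean, in log2 units (horizontal axis), for each of the 10 genes, with the range of the 3 wild-type arrays as a grey bar. The markers lie on opposite sides of the grey bar for Gata3, Cited1, Elf3 and Ehf, at 0.29 and -0.39 for Gata3 and 0.29 and -0.38 for Elf3.

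Genes that luminal factors act with were read from lists written with earlier results of these data known. Of 39 measured other luminal regulators, of 40 listed, 20 were higher and 19 lower in the mean, 0 passed limma's test and 0 had an unadjusted p under 0.05, with a median of 0.00. Both knockout arrays lay above the wild-type arrays for 2 of them, against 2.63% of all genes. Runx1, the DNA-binding subunit of core binding factor, read 8.10 and 7.82 in the knockout and 7.53, 7.79 and 7.69 in the wild type (0.29 ± 0.13, SE). Esr1, the oestrogen receptor, read 6.07 and 6.12 against 5.86, 6.01 and 6.01 (0.14 ± 0.06). Grhl2, a factor of epithelial junction genes, read 6.70 and 6.49 against 6.77, 6.70 and 6.70, so knockout 2 was the lowest, and Stat6, a cytokine-activated factor, was 0.12 ± 0.06 higher in the mean. Knockout 1 above and knockout 2 below all wild-type arrays was seen for 4 of the 39, and the opposite arrangement for 2. The first was seen for 7.52% of all genes and for 11.3% of genes at or above the dim filter. Among the 4, the widest gap was that of Tox3, an HMG box factor chosen after its values were seen, at 6.27 and 5.15 against 5.86 to 5.89.

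Of the 7 measured of 10 hormone-sensing luminal genes, 3 were higher and 4 lower in the mean and 0 passed limma's test (0 at an unadjusted p under 0.05). Pgr, the progesterone receptor, read 7.10 on knockout 1, 6.55 on knockout 2 and 7.10 to 7.11 on the wild-type arrays. Wnt4, a signal made by hormone-sensing cells, read 5.33 and 4.87 against 5.33 to 5.45, and Prom1, a surface protein of these cells, read 7.33 and 6.10 against 7.08 to 7.26. Knockout 2 was the lowest array for these 3 genes, and it was the highest for Esr1.

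The luminal progenitor list had 11 measured genes, 2 higher and 9 lower in the mean, with a median of -0.08 and 0 passing limma's test (0 at an unadjusted p under 0.05). Knockout 2 lay below all wild-type arrays for 8 of the 11, as 23.7% of all genes did. Kit, a receptor kinase of progenitors, read 6.91 and 6.35 against 7.11, 6.98 and 6.73, and Ltf, lactoferrin, read 8.32 and 7.60 against 8.59, 8.32 and 8.42. Muc15, a mucin, differed by -0.18 ± 0.10 (SE) in the mean, and Mfge8, a milk fat globule protein, read 9.18 and 8.89 against 9.13 to 9.34.

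Signalling genes, feedback inhibitors among them, were mixed. Of 12 measured of 14 genes of prolactin, RANKL and JAK-STAT signalling, 4 were higher and 7 lower in the mean, and 0 passed limma's test (0 at an unadjusted p under 0.05). Socs3, a feedback inhibitor of cytokine receptors, read 7.68 and 8.06 against 7.65, 7.65 and 7.41, with both knockout arrays above the wild type. Socs1, a related inhibitor, read 4.70 and 4.49 against 4.79, 4.78 and 4.70, and Tnfrsf11a, the RANK receptor, read 4.50 and 4.42 against 4.50, 4.59 and 4.48.

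Of the 12 secretory targets of STAT5A and ELF5, 4 were higher and 8 lower in the mean, with a median of -0.37, and 0 passed limma's test (1 at an unadjusted p under 0.05). Glycam1, a mucin-like milk protein, read 4.24 and 4.76 in the knockout and 10.72, 10.74 and 8.10 in the wild type, and Btn1a1, butyrophilin, read 5.78 and 5.52 against 6.31, 5.90 and 6.39. Their groups did not overlap, as for 2.8% of all genes with both knockout arrays lower, while those of Elf5 and Stat5a did. Which cells gave the Glycam1 signal was not tested. Csn1s2b, another casein, was among the 4 that were higher, by 0.13 ± 0.08 (SE). It was dim, at 2.57 and 2.79 in the knockout, where array medians were 4.24 to 4.29. The others that were higher were Cish, Socs2 and Ccnd1, which are not milk genes. The 8 that were lower were the other milk genes of the list, Wap, Csn2, Csn1s1, Csn1s2a, Csn3, Lalba, Glycam1 and Btn1a1. Csn1s1, a casein, read 7.98 on knockout 1 and 3.08 on knockout 2 against 7.22 to 9.10.

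Structural luminal genes showed the same order of the knockout arrays. Knockout 1 exceeded knockout 2 for all 11 measured luminal keratin and junction genes, against 38.4% of all genes and 50.6% of those with 5 different values. Of the 11, 4 lay above the wild type on knockout 1 and below it on knockout 2, against 7.52% of all genes and 11.3% of those at or above the dim filter. Muc1, an apical mucin, read 6.30 and 5.54 against 6.21 to 6.23, and Cldn3, a tight junction claudin, read 7.94 and 6.95 against 7.34 to 7.69, both chosen after their values were seen. Others on the list hardly varied, with Epcam, an epithelial adhesion molecule, at 9.98 to 10.10 and Krt19, a luminal keratin, at 9.90 to 10.04. Of the 11, 5 were higher and 6 lower in the mean, and 0 passed limma's test (1, Cldn4, at an unadjusted p under 0.05).

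**Figure D4:**
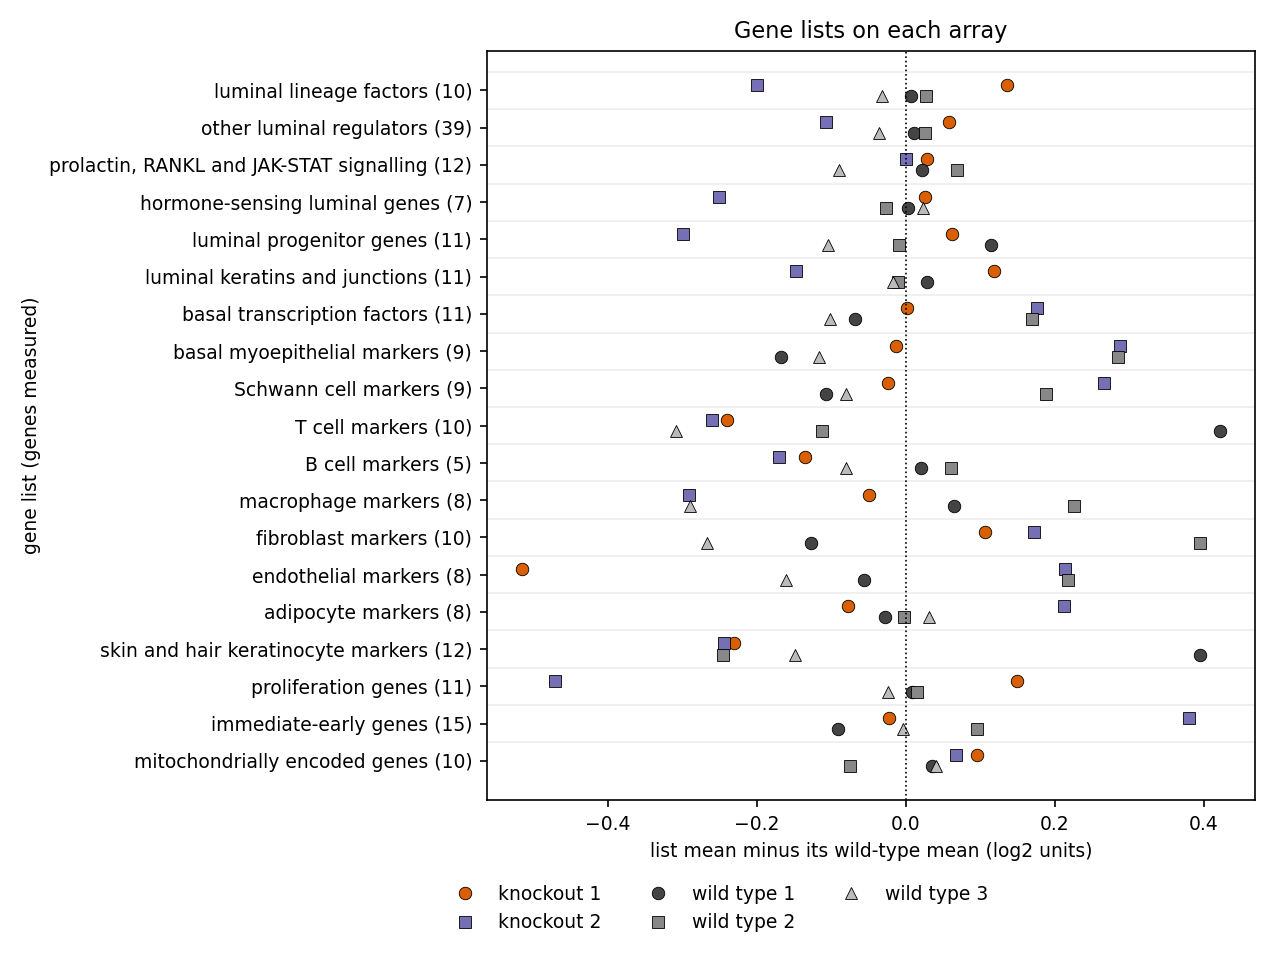
Mean of each gene list on each array minus its wild-type mean, in log2 units (horizontal axis), for the 10 luminal lineage factors and the other lists, with genes measured in parentheses; the list of secretory targets is left out for its wider range. Knockout 1 is on the right and knockout 2 on the left of the wild-type arrays for the luminal factors, proliferation genes and luminal keratins. The other luminal regulators and the hormone-sensing luminal genes have the same arrangement, with knockout 1 only just to the right for the latter. Endothelial markers have knockout 1 farthest to the left.

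Other cell types and states moved with the gap between the knockout arrays, and their part in it was not tested. The 11 measured proliferation genes stood at 0.15 on knockout 1 and -0.47 on knockout 2 relative to the wild-type mean. Knockout 1 was above knockout 2 for all 11, against 38.4% of all genes and 50.6% of those with 5 different values. For 7 of them knockout 1 was above and knockout 2 below all wild-type arrays, against 7.52% of all genes and 11.3% of those at or above the dim filter. Kif11, a mitotic kinesin, read 6.14 and 5.57 against 6.10 to 6.24. Immediate-early genes ran the other way, with -0.02 on knockout 1 and 0.38 on knockout 2. Of these, 12 of 15 lay above all wild-type arrays on knockout 2, against 5019 of all 22180 genes. Jun, a subunit of the AP-1 factor, read 8.67 and 9.18 against 8.49 to 8.68.

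Basal and stromal lists differed in how far they separated the knockout arrays, and the wild-type arrays also differed among themselves. The 9 basal myoepithelial markers stood at -0.01 on knockout 1 and 0.29 on knockout 2, but wild type 2 reached 0.28. The 11 basal transcription factors stood at 0.00 and 0.18, with 0.17 on wild type 2, and 9 of them were higher in the knockout mean. Srf, a regulator of contractile genes, differed by 0.10 ± 0.07 (SE). Fibroblast markers read 0.11 and 0.17, inside the wild-type range of -0.27 to 0.39, and endothelial markers read -0.52 and 0.21. All 8 endothelial markers lay below the wild type on knockout 1, against 4256 of all 22180 genes. On wild type 2 the fibroblast mean was 0.39 and the endothelial mean 0.22.

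Immune and skin lists were lower than the wild-type mean on both knockout arrays, and their part in the values of the luminal factors was not tested. T cell markers, given because T cells carry Gata3, were -0.24 on knockout 1 and -0.26 on knockout 2, and 0.42, -0.11 and -0.31 on the wild-type arrays. Their list mean ranged from 4.48 to 4.50 in the knockout and from 4.43 to 5.16 in the wild type. B cell markers were at -0.14 and -0.17 and skin and hair keratinocyte markers at -0.23 and -0.24. For the skin list both knockout arrays fell inside the wild-type range. Wild type 1 stood highest at 0.39, wild type 3 followed at -0.15, and wild type 2 was lowest at -0.25. Macrophage markers were at -0.05 and -0.29, with knockout 1 above knockout 2 for 7 of 8 genes, the same order as the luminal factors. Knockout 2 lay below all wild-type arrays for 4 of these 8, against 23.7% of all genes, and the list mean of wild type 3 was also -0.29. Adipocyte markers, given because adipocytes carry Stat5a, were -0.08 and 0.21. Mitochondrially encoded genes, read as a sign of RNA quality, were 0.10 and 0.07. Of the 10 measured, 6 had both knockout arrays above the wild type, against 2.63% of all genes. No gene of these lists passed limma's test.

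Genes with the nearest profile over the 5 arrays were sought for the 3 members with the widest range, Gata3, Elf3 and Cited1. The measure was the root mean square distance between the 5 values after each gene was centred on its own mean, over genes above the dim filter. Nearest to Gata3 were 2300009A05Rik at 0.02, Mrtfa, a coactivator of SRF, at 0.02 and Nectin4, an adhesion molecule, at 0.03. Nearest to Elf3 were Tubb2b, a beta-tubulin, at 0.02, Inka1, a kinase inhibitor, at 0.02 and Mrpl36, a mitochondrial ribosomal protein, at 0.02. For Cited1 they were Bub1b, a spindle checkpoint kinase, at 0.02, Spag5, a mitotic spindle protein, at 0.02 and Tmbim4 at 0.02. The ranges of the members themselves were 0.68, 0.67 and 0.53.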

How the data were processed

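Affymetrix arrays were hybridised with biotinylated cDNA made from 10 ng of total RNA of collagenase-freed mammary epithelial cells, per the labels' protocols. The authors deposited a log2 signal for each probe set. Per the submitters' processing notes RMA and limma were used, with no version named. Genome build, library files and probe positions: not given in the sources used here.

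The table has 41345 probe sets. The platform annotation gives 1 symbol to 23521, several to 1814, and does not list 16010. Keeping the brightest probe set per symbol left 22180 genes. Array medians lay between 4.24 and 4.29, and arrays correlated at 0.990 to 0.996 across genes. To 6 decimals, 68.8% of genes had equal values on at least 2 arrays, among them 4 members; ties within a group lower the estimated spread. There are no detection calls, and 5 arrays limit the precision.

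Differences are knockout minus wild type, fitted on all 5 arrays with limma 3.58.1 in R 4.3.3 (two-sided, lmFit and eBayes without a covariate). P-values were adjusted over the 22180 genes by Benjamini-Hochberg, with a threshold of 0.05. The SE and 95% intervals are limma's moderated ones. The fit was run on simulated arrays with independent noise, without equal values or a run effect, so it was not tested against those. Alternatives changed the normalisation, filter, probe sets, variance model, blocks and arrays used. Within-run fits were chosen after seeing the data. The members and the 19 lists (227 genes, 211 measured) were chosen with earlier results of these data known. Named genes are the members, up to 4 per list with the largest moderated t, other probe sets and paralogs, and the 3 nearest profiles; any other is marked in the text as picked with its values known. Epithelial markers Krt8 and Krt14 serve as a check of the cell type. Promoter windows come from RefSeq, GRCm38.p6.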

Additional observations from a re-analysis of the deposited data

How the results depend on the processing

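The 10 members stayed uncalled by limma in each alternative that kept all 5 arrays, including an adjusted p under 0.10, and with any wild-type array left out. With the replicate number from the labels as a block, 0 members and 0 of all genes were called. The numbers mark no shared litter or day in the labels, and deviations of same-numbered arrays from their group means correlated at 0.245 and -0.04. With 2 knockout arrays these deviations are equal and opposite, and knockout 1 shares its run with wild type 1. The correlations therefore cannot show whether the numbers mark pairs. Leaving out 1 array gave 0 to 1 called members (Elf3), 0 to 1757 called genes (1757 without knockout 1, 835 without knockout 2) and 0 to 16 called list genes; a single knockout array is given the spread of the wild-type arrays there. Differences then ranged from -0.39 to 0.29 for Gata3, -0.38 to 0.29 for Elf3, -0.34 to 0.18 for Cited1, -0.40 to 0.073 for Ehf, -0.29 to 0.12 for Foxa1 and -0.032 to 0.28 for Tbx3, while those that kept their sign ranged from -0.25 to -0.07 for Elf5, -0.16 to -0.03 for Stat5a, 0.05 to 0.19 for Sox9 and 0.0017 to 0.22 for Sox10. Signs turned in run 1 alone for Gata3 (0.23), Foxa1 (0.20), Cited1 (0.19), Elf3 (0.29) and Ehf (0.062), in run 2 alone for Stat5a (0.040), with the run as a fixed block for Gata3 (0.017) and Elf3 (0.0067), and with the mean of probe sets for Gata3 (0.058). Run 1 holds 1 knockout array and run 2 holds 1 array per genotype, so these are differences from single arrays. The cause of the other turns was not tested. Only 6 members have 5 different values and could be fitted with such genes alone; none was called there either.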
